A study of Mus musculus with 3 samples.

Results

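The early hepatic culture made from mouse embryonic stem (ES) cells was compared with the ES cells it came from. Total RNA of the line E14.1, an established mouse ES cell line, was measured on Cy3-labelled Agilent whole-genome arrays. The ES cells (day 0) grew on gelatin without serum, in N2/B27 medium to which LIF at 1000 U/ml and BMP4 at 10 ng/ml had been added. Definitive endoderm cultures (day 5) had been moved to collagen IV, with activin A at 30 ng/ml in place of LIF and BMP4. The early hepatic culture (day 7) had had 2 further days in which BMP4 at 30 ng/ml and bFGF at 10 ng/ml joined activin A. No genetic change is named for any group, so the cells of all 3 groups share the E14.1 background. Both media compared here thus held BMP4, at different doses, while LIF was present only at day 0 and activin A and bFGF only at day 7. Time, growth factors and the coating of the dish changed together and cannot be told apart.

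The comparison used 2 of the 3 arrays, 1 per group, and the day 5 array is quoted beside them as a point on the way. Of 27924 gene names on the array, 20856 were compared, those for which the brighter array gave a signal that the scanner software marked as well above background, and the other 7068 were dim on both. With 1 array per group there is no replicate check and no test, so every difference is one between 2 arrays. The probes printed as 10 spots per array gave a median spot SD of 0.0803 (log2) at day 0 and 0.0773 at day 7, which is a technical spread only, and nothing in the labels says how many cultures fed each array. Values are log2 signals relative to the 75th percentile of their array. Where 3 such values follow a gene, they are those of day 0, day 5 and day 7 in that order, and a fold is the day 7 array against the day 0 array. Here "at least" before a fold marks a gene that was not well above background on its dimmer array, for which the fold is a lower bound.

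During development the definitive endoderm is formed in the primitive streak under Nodal signals, which activin A imitates in culture. Foregut endoderm next to the heart and the septum transversum then receives FGF and BMP and turns on liver genes, among which alpha-fetoprotein is an early one and albumin accumulates later. The visceral endoderm, an extraembryonic epithelium of the yolk sac, uses many of the same genes, since it too makes lipoproteins and plasma proteins and takes up maternal protein through endocytic receptors. ES cells in LIF and BMP4 are held in the naive pluripotent state by a network of factors to which Esrrb, Klf4 and Zfp42 belong.

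In all, 3418 genes (16.4% of those compared) had a day 7 signal 2-fold or more above that of day 0 and 4076 (19.5%) 2-fold or more below it, and for 580 and 722 of them only a bound was available. Of all names on the array, dim ones included, these were 12.2% and 14.6%. List counts below are out of the members on the array, so the 12.2% and 14.6% apply where no share is given. Differences of at least 16-fold were seen for 366 genes upwards and 370 downwards. The median over the genes measured on both arrays was -0.21, for which the differences below were not corrected, and it was -0.08 with the authors' deposited value table. Normexp background correction changed the split to 1567 higher and 8314 lower, and when 5 spots of the day 0 array and 1 of the day 7 array that lay far below their local background were left out of that fit together, it gave 2492 and 3005. With all spots in the normexp fit, 23 of the 293 genes named below as changed took the other sign, and without them 0 did. Without them, 21 came under 2-fold, among them Arg1, Cfi, Nr1h4, Wt1 and most of the Hox genes. For 39 of the 293, the median over all probes of the gene gave a difference smaller by over 1.5 times. Of 2474 called genes with further probes, 1028 had a probe that did not pass 2-fold in the same direction, and for named genes such probes are given as their own log2 difference between day 7 and day 0. In the plot of day 7 against day 0, the liver genes Afp and Apob and the factor Foxa2 stood at the upper left edge and Esrrb at the lower right.

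**Figure D1:**
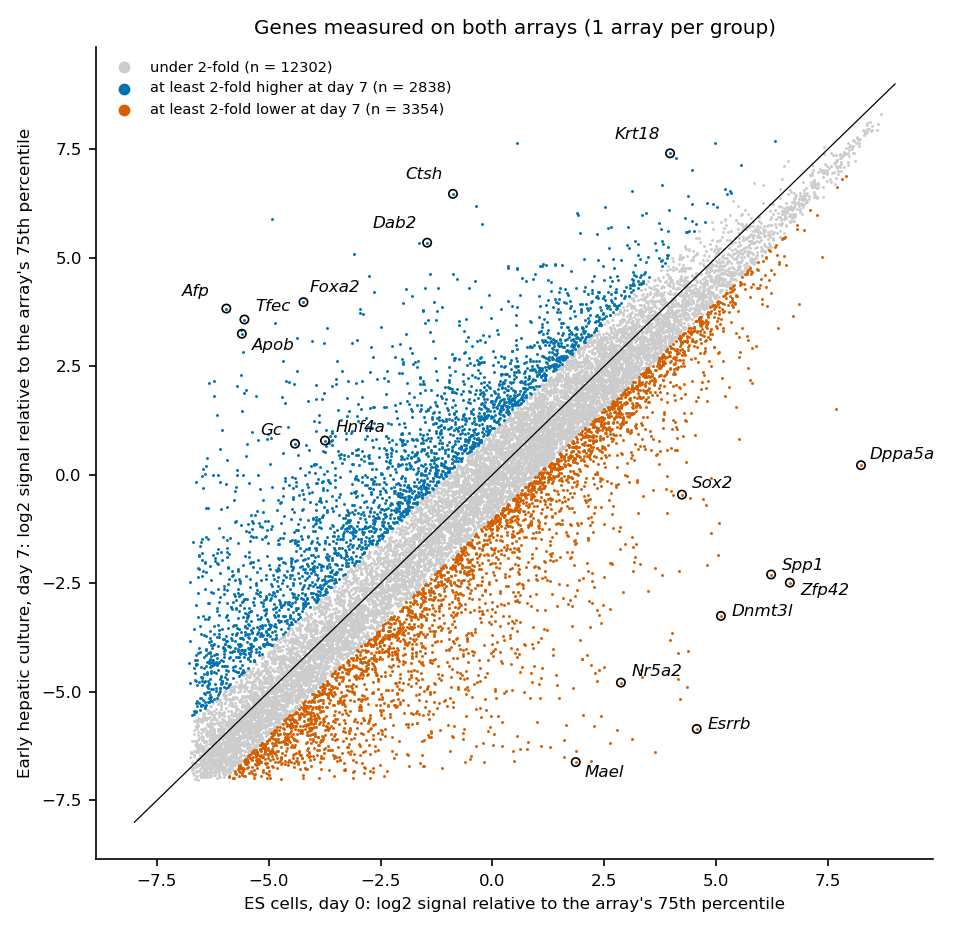
Log2 signal at day 7 (vertical axis) against day 0 (horizontal axis), each relative to the 75th percentile of its array, for the genes whose probe was well above background on both arrays; 1 point is 1 gene and the line marks equal values. Blue points are at least 2-fold higher and orange points at least 2-fold lower at day 7; the difference of Afp is 9.77 and that of Esrrb -10.42.

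Of the markers that define the labelled cell types, Afp, Apob, Foxa2 and Hnf4a were higher at day 7 and Esrrb was lower, while Alb was not well above background on either array. Afp, the fetal counterpart of albumin, read -5.95, -5.29 and 3.83, with SDs over the spots of its probe of 0.239, 0.128 and 0.0848. Its signal lay low on the first 2 arrays and nearly all of the difference arose between day 5 and day 7. Apob, the scaffold protein of chylomicrons and VLDL, read -5.60, -3.19 and 3.25 and climbed in both intervals, with other probes between 4.39 and 9.34. Foxa2, a pioneer factor of endoderm, read -4.22, 4.29 and 3.98, so that its whole rise lay before day 5. Hnf4a, the nuclear receptor that drives hepatocyte genes, read -3.74, -1.0 and 0.79 and was 23.1-fold higher by the probe used. Its other probes gave smaller differences, of 1.62 and 1.72. Esrrb, an orphan nuclear receptor of naive ES cells, read 4.57, -1.27 and -5.85 and fell in both intervals, with another probe at -5.20. Alb, the defining product of the hepatocyte, read -8.53, -6.07 and -7.52 and was well above background on the day 5 array only. In bulk RNA, a change in the number of cells of a type and a change in RNA per cell cannot be told apart, and this holds for all values below.

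The albumin family consists of 4 genes that lie together on chromosome 5 and code for carrier proteins of plasma. Of these 4, 2 were at least 2-fold higher at day 7, against 12.2% of all names on the array. Gc, the vitamin D-binding protein, read -4.41, -6.0 and 0.72 and was 35.0-fold higher. Afm, the vitamin E carrier afamin, read -9.09, -9.05 and -6.92 and was well above background at day 7 only, where it lay so close to the detection limit that no fold is given. Within 1 gene cluster, Afp and Gc thus stood far above both earlier arrays at day 7 and Alb and Afm at or under the limit.

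Sequence upstream of these genes is shown because all 4 hold the same short motif in the promoter window, whether or not the gene was on. The motif GTTAAT, read on either strand, occurs in 7.10% of 32851 promoter windows of 300 bases (250 before to 50 after a start) in the RefSeq table of GRCm38.p6. Each line runs 5′ to 3′ on the strand of the gene and ends at the base before the annotated start, with every match to the GTTAAT motif in capitals. The lines of Afp (chr5:90490574-90490713, plus strand), Gc (chr5:89457899-89458038, minus strand), Alb (chr5:90460730-90460869, plus strand) and Afm (chr5:90518699-90518948, plus strand) are followed by those of Fgb (chr3:83049864-83050003, minus strand), Lgals2 (chr15:78855530-78855669, minus strand) and Hnf4a (chr2:163547015-163547154, plus strand).
Afp: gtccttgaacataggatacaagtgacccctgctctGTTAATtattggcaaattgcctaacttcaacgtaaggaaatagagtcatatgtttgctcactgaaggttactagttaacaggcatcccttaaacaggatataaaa
Gc: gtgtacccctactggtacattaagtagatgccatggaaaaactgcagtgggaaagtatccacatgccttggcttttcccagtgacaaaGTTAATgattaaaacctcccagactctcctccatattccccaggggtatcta
Alb: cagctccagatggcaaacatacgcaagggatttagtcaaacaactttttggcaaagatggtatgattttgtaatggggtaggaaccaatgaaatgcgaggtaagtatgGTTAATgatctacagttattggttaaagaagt
Afm: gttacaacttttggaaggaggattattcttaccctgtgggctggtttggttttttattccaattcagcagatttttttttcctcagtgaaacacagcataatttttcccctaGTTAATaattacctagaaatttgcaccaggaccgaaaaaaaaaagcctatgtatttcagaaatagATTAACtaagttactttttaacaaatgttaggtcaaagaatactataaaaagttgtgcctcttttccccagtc
Fgb: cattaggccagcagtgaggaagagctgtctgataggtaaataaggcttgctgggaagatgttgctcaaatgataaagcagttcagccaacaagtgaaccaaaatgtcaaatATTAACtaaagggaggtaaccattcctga
Lgals2: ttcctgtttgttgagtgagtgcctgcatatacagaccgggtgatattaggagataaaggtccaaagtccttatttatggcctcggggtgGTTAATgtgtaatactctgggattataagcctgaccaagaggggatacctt
Hnf4a: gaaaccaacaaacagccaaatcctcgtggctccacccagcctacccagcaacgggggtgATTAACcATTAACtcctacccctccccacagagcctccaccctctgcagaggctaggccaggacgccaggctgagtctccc
In Alb the first letter of the match lies 32 bases before the start and in Gc 52, in Afp it lies farther out, and Afm has a match at 138 and another at 73. Fgb, the fibrinogen beta chain, read -6.46, -4.36 and 0.13 and was 96.3-fold higher. Lgals2, a galectin of gut epithelium and early endoderm, read -5.71, -6.20 and 2.04, so that its 214-fold higher value arose wholly after day 5. Hnf4a has more than 1 window in the table, and the one shown carries the GTTAAT motif at 81 and again at 74. Among windows of genes at least 16-fold higher at day 7, 9.94% held the GTTAAT motif, against 7.76% for genes at least 16-fold lower, 6.12% for all genes at least 2-fold higher and 5.13% for all genes compared. The TATA box, TATAAA on either strand, was in 17.1%, 9.94%, 8.99% and 9.23% of the same windows, in the same order. Among lists, the GTTAAT motif was in a window of 4 of 4 albumin family genes, 7 of 21 other secreted liver proteins, 7 of 19 complement genes, 4 of 21 coagulation genes, 2 of 17 apolipoprotein genes and 2 of 42 ribosomal protein genes. It was also in a window of 9 of 33 intestine, 4 of 12 general pluripotency and 3 of 16 naive pluripotency genes, lists that fell or moved both ways. The list counts are of genes with a match in any of their windows, whereas the percentages are of windows, so the 2 are not directly comparable. A match is a description of letters and says nothing about binding.

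Liver transcription factors were higher in part. Of 32 on the array, 14 were at least 2-fold higher, 4 lower and 1 dim on both arrays, with a median of 0.61 over those measured. The forkhead factor Foxa1 read -7.52, 0.41 and -0.34 and was at least 86.6-fold higher. Gata6, a zinc finger factor of endoderm and heart, was 36.8-fold higher by the probe used, and its other probes gave -0.09 and 4.43. Gata4, its close relative, read -5.28, -2.05 and -1.43 and was 14.4-fold higher.

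Hhex, a homeobox factor of the liver bud, peaked at day 5 with -0.18, 4.09 and 1.75. Prox1, which marks hepatoblasts leaving the bud, was 8.11-fold higher, although its other probes gave 0.02 and 0.24. Onecut1, the hepatic factor HNF6, stayed low at -6.11, -6.05 and -6.14, with another probe at -1.51. Cebpa, a factor of metabolic maturation, also stayed low, at -5.49, -5.74 and -6.0, with another probe at -1.80. Nr5a2, a nuclear receptor that serves both ES cells and liver, read 2.87, -2.54 and -4.79 and was 202-fold lower. The bile acid receptor Nr1h4 (at least 4.25-fold lower) and the acute-phase factor Cebpb (2.84-fold lower) were also lower. Nr5a2, Nr1h4 and Cebpb thus moved against Foxa1, Foxa2 and Hnf4a.

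Plasma proteins split in both directions. Of 29 further secreted liver proteins, 9 were higher, 7 lower and 6 dim on both arrays. These shares of 31.0% higher and 24.1% lower stand against 12.2% and 14.6% of all names. Ttr, the thyroxine and retinol carrier transthyretin, read -8.60, -4.37 and 0.94 and was at least 211-fold higher. Rbp4, the retinol carrier that pairs with it, read -1.06, 3.28 and 2.01 and had its highest value at day 5. Ambp, the precursor of alpha-1-microglobulin, had the same order with -6.48, 0.18 and -1.95. Igf2, the fetal growth factor, read 1.89, 3.27 and 6.04 and rose in both intervals. Serpinf1 (10.9-fold higher) and the selenium carrier Selenop (10.4-fold higher) were the next in size.

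The 7 lower members had their signal in the ES cells. A2m, a broad protease inhibitor, read 0.55, -5.52 and -6.02 and was 94.9-fold lower, with another probe at -2.19. Fetub and Ahsg, the 2 fetuins, read -0.28, -4.49 and -5.38 and -0.47, -5.71 and -5.13, and most of both falls lay before day 5. Haptoglobin, Hp, was at least 13-fold lower, and the iron carrier transferrin, Trf, was 5.70-fold lower with -1.82, -4.36 and -4.33.

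Lipoprotein genes showed the same split. Of 20 genes, 7 were higher and 5 lower, with a median of 0.71. Mttp, the transfer protein that loads lipid onto Apob, read -3.65, -2.25 and 0.73 and was 20.9-fold higher. Apoa1, the core protein of HDL, read -7.94, -1.24 and -0.93, so that it was already on at day 5. Apoc2, the cofactor of lipoprotein lipase, read -2.18, -2.45 and 2.71, with its change after day 5. Apoa4 was 19.4-fold higher, Apoc3 at least 13.8-fold higher and Apoe 2.58-fold higher, the last from 6.32 at day 0. On the other side stood Apod (at least 53.9-fold lower), the Apob RNA-editing enzyme Apobec1 (28.9-fold lower, another probe -2.96), Apoc1 (12.2-fold lower) and Apoa2 (at least 7.36-fold lower).

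Among 28 factors of coagulation and fibrinolysis, 8 were higher and 5 lower (28.6% and 17.9%, against 12.2% and 14.6% of all names). F10, the protease that activates prothrombin, read -7.72, -0.77 and 2.04 and was at least 454-fold higher. Plat, the tissue plasminogen activator, and its substrate Plg were 12.1-fold higher and 11.6-fold higher. F3, the tissue factor, read -0.33, -0.76 and 2.55 and F5, the cofactor of F10, read -5.07, -1.52 and -2.80. Of the fibrinogen chains, Fgb was up, Fgg read -1.87, -2.19 and -3.10 and was 2.34-fold lower, and Fga was dim on both arrays, so that the 3 chains of 1 protein did not move together. Prothrombin, F2, was level at -1.58, -2.02 and -1.75. Kininogen, Kng1 (5.34-fold lower), and the C1 inhibitor Serping1 (4.95-fold lower) fell furthest, and Thbd and Proc were the other lower members.

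In the complement list, 5 of 26 genes were higher and 6 lower, near the shares of all names (12.2% and 14.6%). The mannan-binding lectin protease Masp1 read -4.61, -0.95 and 2.17 and was 109.9-fold higher, with other probes at 1.01 and 1.91. The membrane inhibitors Cd59a (16.3-fold higher) and Cd55 (12.4-fold higher) were also higher, as were C4bp (at least 7.14-fold higher) and Cfi (5.40-fold higher). C1s1, a protease of the classical pathway, read -1.16, -4.92 and -5.88 and was 26.2-fold lower. C2 (7.72-fold lower), C8b (5.08-fold lower) and Masp2 (4.83-fold lower) followed. The lectin-pathway proteases Masp1 and Masp2 therefore moved in opposite directions.

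Of 44 hepatocyte enzymes, 8 were higher, 13 lower and 9 dim on both arrays, against 12.2% higher and 14.6% lower of all names on the array. Fmo1, a flavin monooxygenase of fetal liver, read -7.25, -6.30 and 0.08 and was at least 116-fold higher. Tdo2, which opens the tryptophan ring, read -5.93, -6.06 and -1.79, and Fabp1, the liver fatty acid carrier, -7.64, -7.68 and -2.76, both with the change after day 5. Arg1, the last enzyme of the urea cycle, was 5.24-fold higher. Its first enzyme Cps1 was at least 9.43-fold lower and Nags, which makes the activator of Cps1, read -1.88, -4.57 and -5.80 and was 15.1-fold lower. Dpys, of pyrimidine breakdown, read 4.36, -1.91 and -4.90 and was 612-fold lower, with another probe at -2.80. Of the other urea cycle enzymes, Ass1 was 2.76-fold lower, while Asl (2.39, 2.92 and 2.84) was within 2-fold of day 0 at day 7. Otc (-8.80, -4.93 and -6.08) was not well above background at day 0. Its log2 difference had a lower bound of 0.70, which does not show whether it passed 2-fold. Ass1, Asl and Otc were named after their values were seen.

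**Figure D2:**
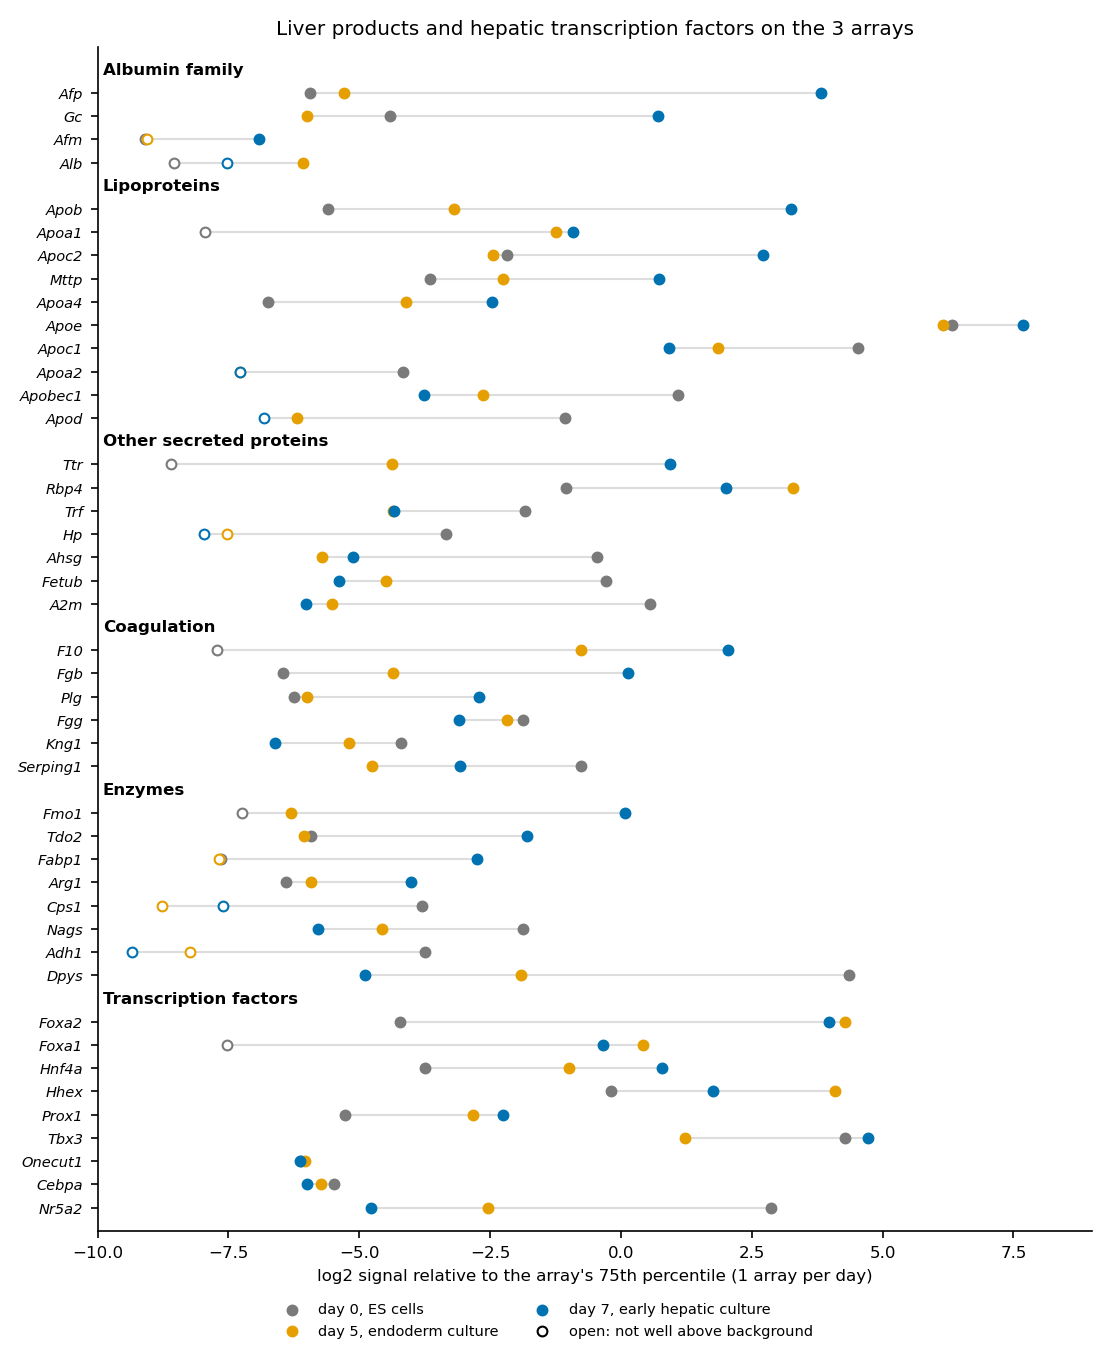
Log2 signal of liver genes relative to the 75th percentile of each array (horizontal axis) at day 0 (grey), day 5 (orange) and day 7 (blue), 1 array per day; open points were not well above background. The blue point lies to the right of the grey one for Afp, Apob, Ttr and Fgb, and to the left for A2m, Apod, Dpys and Nr5a2; Alb is open at day 0 and day 7.

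Markers of hepatoblasts and bile duct cells were higher in 10 of 20 cases and lower in 3. Cited1, a transcriptional cofactor, read -1.21, 1.22 and 4.31 and was 45.9-fold higher. Dlk1, a surface protein of hepatoblasts, read -1.87, -0.69 and 1.62 and rose in both intervals. The simple-epithelium keratins Krt8, Krt18 and Krt19 were 9.14-fold higher, 10.8-fold higher and 9.48-fold higher, of which Krt19 gained more after day 5 than before it, with 1.23, 2.57 and 4.48. Sox9, a factor of duct cells, was 52.6-fold higher, with other probes at -0.28 and 5.96. Lgr5, a Wnt co-receptor, was at least 42.4-fold higher. Epcam, an adhesion molecule of hepatoblasts and of ES cells, did not separate the arrays with 2.94, 3.29 and 2.80. Spp1, osteopontin of the bile duct, read 6.23, -0.04 and -2.30 and was 369-fold lower, with Jag1 (2.54-fold lower) and Krt7 (2.34-fold lower) also lower.

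Epithelial junction genes were higher in 14 of 38 cases and lower in 5. The cadherin Cdh6 was at least 30.9-fold higher, and the desmosome parts Dsc2 and Dsp were 17.0-fold higher and 12.1-fold higher. E-cadherin, Cdh1, was level at 3.64, 4.46 and 3.42. Grhl2, a factor of epithelial identity, read 2.50, 0.48 and -1.13 and was 12.4-fold lower, followed by Cldn4 (4.98-fold lower) and Pkp3 (3.13-fold lower). Basement membrane genes were higher in 17 of 36 cases, led by collagen IV chains Col4a2 (32.2-fold higher), Col4a5 (at least 28.8-fold higher) and Col4a1 (28.5-fold higher). Lama1, a laminin chain, read 0.71, -2.95 and 1.91, so that its lowest value lay at day 5. Itga6, a laminin receptor of ES cells, was 4.08-fold lower, and Itga5, the fibronectin receptor chain, 5.25-fold higher.

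Visceral endoderm genes and endocytic receptors moved mostly one way. Of 37 genes, 32 were at least 2-fold higher and 2 lower, with a median of 3.86. The number of members well above background was 35, 36 and 36 at day 0, day 5 and day 7, and their summed signal was 96.5, 339.5 and 780.2 multiples of the 75th percentile. These genes are shared with liver and gut epithelium, and their part in the liver results was not tested. The list itself overlaps others, so its counts are not separate from theirs. Apob, Hnf4a and Cited1 also count in the lipoprotein, hepatic factor and hepatoblast lists. Sparc also counts in the mesenchymal matrix list, and Spink1 and Dkk1 in the definitive endoderm list. Cubn and Amn form the cubam receptor for vitamin B12 and plasma proteins, and Lrp2, megalin, is its partner. Cubn read -1.51, -1.31 and 3.49, Amn -2.10, -0.48 and 1.18 and Lrp2 0.67, 0.17 and 4.52. For Cubn and Lrp2 the day 5 value was within 2-fold of day 0, so that the change came after day 5. Dab2, the adaptor that couples these receptors to clathrin, read -1.46, 0.40 and 5.34 and was 112-fold higher. It rose in both intervals, with the larger step after day 5.

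Tfec, a bHLH factor, read -5.54, -2.55 and 3.58, also mainly after day 5, with another probe at a difference of 4.81. Clic6, a chloride channel protein, read -3.09, 4.29 and 5.09, and Tmprss2, a membrane serine protease, -5.56, 0.56 and 1.89, and both had the larger step before day 5. Sox7, a factor of the extraembryonic endoderm, read -0.87, -1.94 and 1.71 and was 6.0-fold higher. It was lower at day 5 than at day 0, whereas its relative Sox17 was highest there, with -2.65, 4.83 and 4.20 (differences by other probes between 1.59 and 6.02). Nostrin (2.32-fold lower) and Thbd (at least 2.87-fold lower) were the 2 lower members.

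Lysosomal genes were higher in 17 of 31 cases and lower in 1, with a median of 1.14. Ctsh, an aminopeptidase cathepsin, read -0.88, 3.25 and 6.47 and was 163-fold higher. Lgmn, the asparagine endopeptidase, read 0.95, 2.74 and 4.62, and Ctsc, which activates serine proteases, -0.07, 3.61 and 4.14. Ctso (22.8-fold higher), the acid lipase Lipa (6.78-fold higher) and Ctsf (6.66-fold higher) were also higher. Ctsb and the inhibitor Cst3 were 2.62-fold higher and 6.06-fold higher. Over the settings tried, the median of this list ran from 1.14 to 1.32, and the medians of several other lists moved more. Over members on the array, it ran from 1.86 to 4.53 for visceral endoderm and from 0.87 to 3.91 for definitive endoderm genes. For streak genes it ran from 0.51 to 3.46 and for BMP targets from 0.38 to 2.21. The mesenchymal matrix list ran from 0.00 to 2.92 and the cardiac list from 0.00 to 1.85.

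Iron and zinc genes were mixed, with 6 of 26 higher and 9 lower (23.1% and 34.6%, against 12.2% and 14.6% of all names). Slc39a8, an importer of zinc and manganese, read -2.89, 3.15 and 3.71 and was 97.2-fold higher, with other probes at 1.47 and 5.69. Ferroportin, Slc40a1, the iron exporter of the cell membrane, read -0.53, 3.29 and 4.29, and its copper-dependent partner Heph was 19.3-fold higher. The ferric reductase Cybrd1 was 18.8-fold higher. The transferrin receptor Tfrc read 0.63, -0.60 and -1.25 and was 3.68-fold lower. The export genes and the reductase were therefore higher and both transferrin and its receptor lower. The metallothioneins Mt1 (3.28, 2.56 and 3.79) and Mt2 (5.42, 4.79 and 5.45) were within 2-fold of day 0 at day 7.

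Definitive endoderm genes were higher in 20 of 29 cases and lower in 3, with a median of 3.84. Part of this list had passed its peak. Cer1, a secreted Nodal and BMP inhibitor, read -8.92, 5.45 and -2.23, and Gsc, a homeobox factor of the anterior streak, -3.86, 5.21 and 0.18. Both were above day 0 and well under day 5. Cxcr4, the chemokine receptor used to sort endoderm, went the same way with -5.08, 1.33 and -1.07. Nepn, a proteoglycan of foregut endoderm, read -6.23, 0.20 and 1.80, and Spink1, a trypsin inhibitor, 0.54, 5.59 and 7.63, and both were highest at day 7. Trh, the thyrotropin-releasing hormone, read 3.78, 3.38 and -2.31 and was 68.2-fold lower, with Fgf17 (19.6-fold lower) and the zinc carrier Slc30a2 (5.90-fold lower) also lower.

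Streak and mesendoderm genes were still above ES cells at day 7 in 20 of 24 cases. Lhx1, a LIM factor of the streak, read -3.76, 6.30 and 3.03 and Eomes, the T-box factor upstream of endoderm, -3.94, 2.82 and 1.74. T, brachyury, rose in both intervals with -1.25, 0.73 and 1.31. Kdr, the VEGF receptor of early mesoderm, and Mesp1, a factor of cardiac mesoderm, were 64.8-fold higher and 34.0-fold higher. Mixl1, a homeobox factor of mesendoderm, was at least 13.4-fold higher with -7.70, -1.86 and -3.04. Lefty2 was the only lower member of this list, with 0.45, 2.42 and -2.70.

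The activin and Nodal targets included genes that rose and came back. Lefty1, a feedback inhibitor of Nodal, read 0.06, 7.08 and 0.30, so that day 7 lay within 2-fold of day 0 although day 5 was 129-fold higher than day 0. Nodal itself was within 2-fold of day 0 at day 7, with a log2 difference of -0.09, and its value at day 5 was 4.16. Cfc1, a Nodal co-receptor, did not return and read -1.94, 4.58 and 4.28. Of 22 genes in this list, 11 were higher at day 7 and 4 lower. The lower ones were Inhbb, an activin subunit (53.3-fold lower, another probe -1.65), the co-receptor Tdgf1 (17.5-fold lower), Lefty2 and Tgif1 (2.66-fold lower). Activin A was in the medium at both day 5 and day 7.

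BMP targets were higher in 12 of 23 cases and lower in 2, with a median of 2.21. BMP4 was in the medium at day 0 and day 7 and absent at day 5. Bambi, a decoy receptor of the pathway, read 0.86, 3.02 and 3.52 and was 6.33-fold higher. Id2, an inhibitor of bHLH factors, was lowest at day 5 and read 2.86, 0.63 and 2.75. Tbx3, a T-box factor of naive ES cells and of the liver bud, was also lowest there, with 4.28, 1.22 and 4.71, and the transcript of Bmp4 itself read 1.38, -1.31 and 2.0. Id2 and Bmp4 were singled out after their values were seen. Id1 moved less, with 3.97, 3.43 and 4.15, and Id3 rose at day 5 already with 1.84, 3.20 and 3.38. The homeobox factor Msx2 read -2.33, -2.51 and 2.16 and was 22.5-fold higher, with its whole change after day 5. Smad6, an inhibitor of the pathway, read -0.91, 1.27 and 2.77, and Bmper, a secreted modulator, -4.69, 0.31 and 2.63. Id4 (17.0-fold lower) and Gata2 (5.90-fold lower) were the 2 lower members.

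bFGF was added for the last 2 days, and the feedback genes of the FGF and ERK pathway did not move one way. Of 24 genes, 6 were higher and 8 lower, with a median of -0.09. The receptor Fgfr4, the liver FGF receptor, was 6.53-fold higher with -0.82, -1.92 and 1.89, and its other probes gave 0.26 and 1.80. Fgfr1 stayed at -3.43, -3.67 and -3.37. Among the immediate feedback genes, the phosphatase Dusp6 read 2.99, 3.81 and 2.40, Spry1 1.11, 1.56 and 2.08 and Spry2 3.24, 1.71 and 1.66, the last with another probe at -0.88. The ETS factors Etv4 and Etv5 read 1.38, 0.58 and 0.48 and 0.79, -1.90 and -2.0. For Spry2, Etv4 and Etv5 the day 7 value lay under day 0 and within 2-fold of day 5. Phlda1 (8.47-fold higher) and Dusp4 (4.74-fold higher) were higher, and Fgfr2 was 9.92-fold higher with other probes at 0.06 and 3.22.

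LIF was withdrawn, and of 22 LIF and STAT3 targets 12 were lower and 0 higher. Socs3, the feedback inhibitor of the pathway, read 5.44, -0.18 and 1.55 and was 14.8-fold lower. Bcl3, an I-kappa-B protein, read 3.18, -3.24 and -1.89, and Nupr1, a stress-response nuclear protein, 3.34, -3.41 and -4.65. Nupr1 was 254-fold lower, and Scgb3a1, a secretoglobin, at least 175-fold lower. The receptor chain Lifr (-0.58, -2.08 and -1.05) and Stat3 (3.58, 2.86 and 3.16) lay within 2-fold of day 0 at day 7, although Lifr had been lower at day 5.

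**Figure D3:**
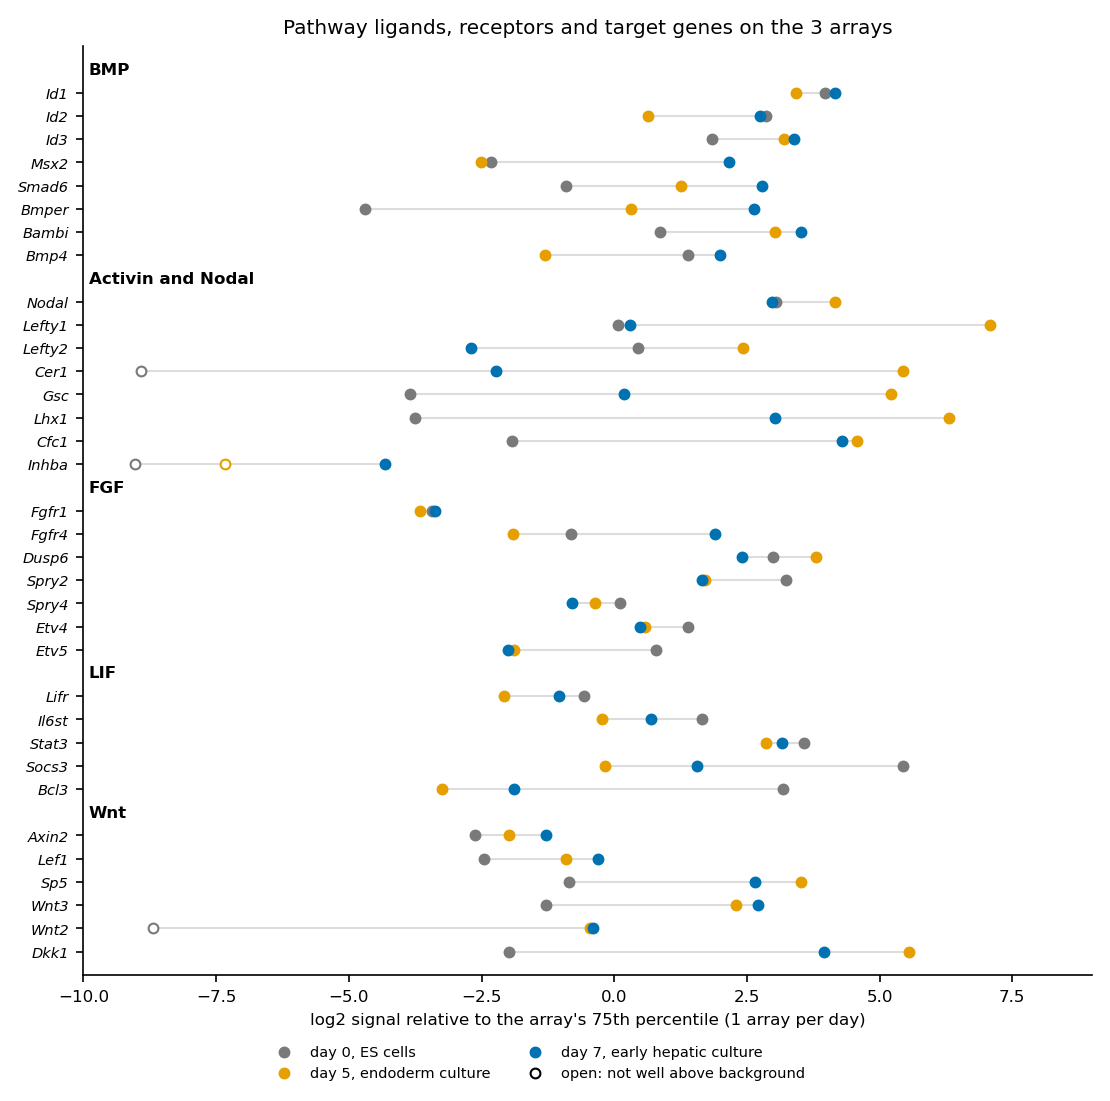
Log2 signal of pathway genes relative to the 75th percentile of each array (horizontal axis) at day 0 (grey), day 5 (orange) and day 7 (blue), 1 array per day; open points were not well above background. Lefty1 lies at 0.06 at day 0 and 0.30 at day 7 but at 7.08 at day 5, and Id2 is lowest at day 5 with 0.63.

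Wnt targets and antagonists were higher in 22 of 40 cases and lower in 5. Axin2, a general feedback target, was 2.51-fold higher with -2.62, -1.98 and -1.29, Lef1, a Wnt nuclear factor, 4.43-fold higher and Sp5, another target, 11.3-fold higher. The ligands Wnt2 (at least 83.2-fold higher) and Wnt3 (15.9-fold higher) and the inhibitors Dkk1 (61.7-fold higher), Dkk2 (at least 51.3-fold higher) and Frzb (at least 49.5-fold higher) were all higher. Wnt5a, a noncanonical ligand, read -5.65, -4.35 and -2.76, with its rise spread over both intervals. Dkk3 (5.91-fold lower) and Notum (3.78-fold lower) were the furthest below day 0. In the retinoic acid list, 10 of 23 genes were higher. Cyp26a1, which destroys retinoic acid, read -4.86, 4.64 and 3.50, while Aldh1a2, the main embryonic enzyme that makes it, was lowest at day 5 and read -2.15, -4.92 and -1.78, within 2-fold between day 0 and day 7. Aldh1a1, another synthesis enzyme, was 14.9-fold higher with its change after day 5, and the receptor Rarb was at least 37.1-fold higher, with another probe at 0.33. Stra8, a retinoic acid target of germ cells, was at least 21.9-fold lower.

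Hedgehog genes moved apart. The ligand Ihh, a product of endoderm, read -6.09, -3.30 and 0.60 and was 103-fold higher, while Shh was dim on both arrays and Dhh was 7.97-fold lower. Of the common targets, Gli1 read -3.67, -5.09 and -5.71 and Ptch1 -2.82, -2.18 and -2.44, while Hhip was 2.25-fold higher (another probe 0.31). Foxf1 and Foxf2, forkhead factors of splanchnic mesoderm that answer to hedgehog, were both higher, Foxf1 by a bound only (at least 2.21-fold higher), and Foxf2 read -6.54, -0.07 and 1.49 (at least 261-fold higher). Notch genes were divided into 8 higher and 6 lower of 22, led by the ligand Dll1 (7.50-fold higher) and by Dtx1 (29.2-fold lower). Hes1, the common Notch target, was highest at day 5 and read -1.12, 0.68 and -0.53, within 2-fold between day 0 and day 7.

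Markers of mesoderm and mesenchyme were also higher, and their part in the liver results was not tested. Of 37 genes of fibrillar collagen and mesenchymal matrix, 24 were higher and 4 lower, with a median of 2.74. Members well above background numbered 31, 32 and 34 on the 3 arrays, with a summed signal of 79.0, 98.5 and 207 multiples of the 75th percentile, of which Sparc, a matrix glycoprotein also made by parietal endoderm and named after its values were seen, held 62.9% at day 7. Col1a2 read -3.49, 0.69 and 2.20 and Col1a1 -1.80, -2.96 and 2.81, the chains of collagen I. Postn (184-fold higher) and Col3a1 (89.2-fold higher) were higher by the probe used. Another probe of Col3a1 gave 0.19. That of Postn was not well above background on 1 array and gave only a bound of 0.00, which shows no direction. Col14a1, a fibril-associated collagen, was 88.1-fold higher. Fn1, fibronectin, was lower at day 5 and read 1.38, 0.22 and 1.08. Mfap5 (at least 43.5-fold lower), Lox (at least 9.09-fold lower) and Pcolce (5.86-fold lower) were lower, of which Lox cross-links collagen and Pcolce promotes its processing.

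Regulators of mesenchyme were higher in 18 of 32 cases. The EMT factors Zeb2 (-5.94, -1.92 and -0.74, differences by other probes between 1.49 and 3.71), Twist1 (-4.23, -1.49 and -0.45) and Snai1 (-3.28, -0.35 and -1.11) were all above day 0. N-cadherin, Cdh2, was 32.6-fold higher by the probe used and 0.30 and 0.83 by its other probes. Wt1, a marker of the septum transversum mesothelium, was 2.43-fold higher from a value near the limit. Vimentin, Vim, read 4.31, 5.15 and 5.91 and was 3.03-fold higher, and Acta2, smooth muscle actin, stayed within 2-fold with 3.29, 3.76 and 3.90 by the probe used and gave 0.26 and 6.51 by others. Thy1 (11.1-fold lower) was the furthest below day 0. Cdh11, a mesenchymal cadherin, was 4.79-fold lower by the probe used while its other probes gave 7.72 and 7.99, so that no direction is given for it.

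Cardiac and lateral mesoderm genes were higher in 18 of 32 cases and lower in 1. Myocd, a coactivator of muscle genes, read -6.23, 2.65 and 2.17, with another probe at a difference of 4.73. Tnnt2, cardiac troponin T, changed mainly after day 5 and read -3.70, -3.06 and 0.08. Tbx20, a T-box factor of the heart, was 18.9-fold higher, with other probes at 0.15 and 4.89. The summed signal of the list was 20.3, 71.6 and 49.7 at day 0, day 5 and day 7. Myl7 alone held 40.5% of the day 5 sum. From day 5 to day 7, 15 members were at least 2-fold higher and 4 lower. The part of cardiac and lateral mesoderm cells in the liver results was not tested. Nkx2-5, the early cardiac homeobox factor, read -3.50, -4.71 and -2.25, and Hand2 -5.85, -4.49 and -3.05. Myl7, atrial myosin light chain, peaked at day 5 and came back to within 2-fold of day 0 with 2.49, 4.86 and 2.70, and Myl2, the ventricular one, was 64.6-fold lower. Of 36 endothelial and blood genes, 7 were higher and 11 lower. Flt1 (102-fold higher), Fli1 (at least 48.0-fold higher) and Cdh5 (at least 11.2-fold higher) were higher, but Vwf (6.26-fold lower), Pecam1 (10.8-fold lower), Robo4 (4.37-fold lower), Nos3 (4.01-fold lower), Plvap (3.03-fold lower) and Tek (2.67-fold lower), also genes of endothelium, were lower. Of the blood genes, Tal1 (2.17-fold lower), Gata1 (3.26-fold lower), Gata2 and Gfi1b (4.17-fold lower) were lower and the embryonic globin Hbb-bh1 was 2.28-fold higher (another probe 0.49). Nos3, Plvap, Tek, Gfi1b and Hbb-bh1 were named after their values were seen.

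Other lineages moved both ways, and the neural list leaned lower. Neural genes were higher in 5 of 32 cases and lower in 12 (15.6% and 37.5%, against 12.2% and 14.6% of all names). Sox1 read -4.29, -4.65 and -4.84 and Pax6 -6.09, -6.27 and -6.95. In the trophoblast list 7 of 19 were higher and 7 lower. Elf5 (at least 12-fold higher) was among the higher ones and Esx1 (log2 difference -2.28) among the lower ones. The foregut and pancreas list had 7 higher and 7 lower of 33. Pdx1, the defining pancreas factor, and Nkx2-1, that of lung and thyroid, were dim on both arrays, and the gut hormone Pyy stayed at -1.82, -1.5 and -1.79. Among 40 intestine and hindgut genes, 9 were higher and 10 lower. On the higher side, villin, Vil1, read -1.32, 1.59 and 3.08 and the peptidase Dpp4 was 108-fold higher. On the lower side, Gpa33 had a log2 difference of -7.05, which is a bound. Esx1 and Gpa33 were named after their values were seen. Cdx2, the hindgut and trophoblast factor, read -1.96, -6.19 and 0.71, lowest at day 5, and Cdx1 was dim on both arrays.

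**Figure D4:**
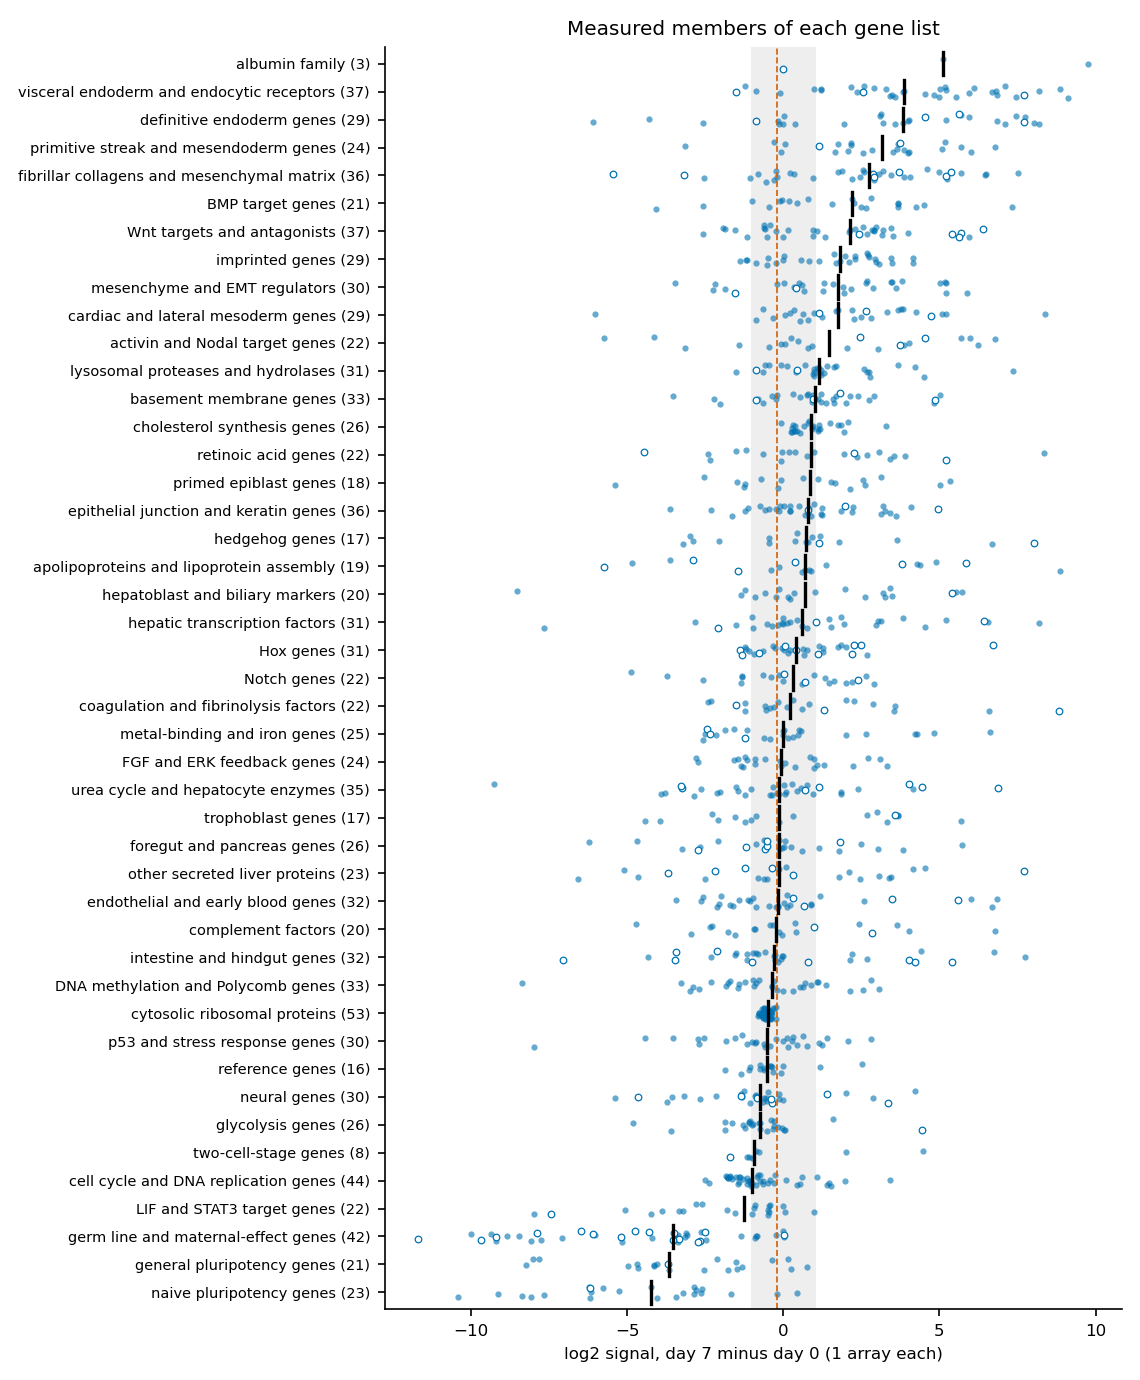
Difference in log2 signal between day 7 and day 0 (horizontal axis) for the measured members of 45 gene lists, with the number measured in brackets; 1 point is 1 gene, open points are bounds, black bars are list medians, the grey band marks differences under 2-fold and the dashed line the median of all genes compared (-0.22). The visceral endoderm list (median 3.86) and the naive pluripotency list (median -4.24) lie on opposite sides of the band.

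Hox genes, which give position along the body axis, had low signals, with 24, 11 and 28 of 38 well above background at day 0, day 5 and day 7. Of these 38, 12 were higher at day 7 and 5 lower. Hoxb2, an anterior member of the B cluster, read -8.93, -7.65 and -0.07 and was at least 104.6-fold higher, with another probe at 2.77. Hoxb1 (at least 4.78-fold higher), Hoxb3 (at least 5.63-fold higher) and Hoxb5 (at least 4.61-fold higher) rose by smaller bounds, and Hoxa11 was 4.06-fold higher. Hoxc10, Hoxc12 and Hoxc13 of the posterior C cluster were 2.27-fold lower, at least 2.64-fold lower and at least 2.52-fold lower, the first with another probe at -0.43. With the normexp correction fitted without the outlying spots, 2 members passed 2-fold upwards and 0 downwards.

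On the ES cell side, all but 2 of the 23 naive pluripotency genes were at least 2-fold lower, against 19.5% of all genes compared, and the median was -4.24. The 2 exceptions were Tbx3, described above, and Klf2, a Krüppel-like factor, with 3.33, 3.68 and 3.13 by the probe used (named after its values were seen). Klf2 has another probe, which fell, with a difference of -8.05, so that no direction is given for it. Klf4 also recovered in part, from 0.19 at day 5 to 3.11 at day 7, and remained 6.05-fold lower than at day 0. Zfp42 (Rex1), a zinc finger marker of naive cells, read 6.65, 1.25 and -2.49. Dppa3 (269-fold lower) and Dnmt3l (328-fold lower) followed in size. Of 21 general pluripotency genes, 17 were lower and 0 higher. Pou5f1 (Oct4) read 3.26, 0.88 and -0.88, Sox2 4.24, 0.28 and -0.46 and Nanog 2.85, 0.21 and -1.20. All 3 fell by more before day 5 than after it.

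The upstream stretch of Zfp42 (chr8:43307010-43307209, GRCm38.p6, minus strand) is shown since Zfp42 is a known target of Pou5f1 and its window holds the octamer core, ATGCAAA on either strand, in capitals below. The core occurs in 4.63% of all windows, in 8.07% of those of genes at least 16-fold lower at day 7 and in 3.73% of those of genes at least 16-fold higher.
Zfp42: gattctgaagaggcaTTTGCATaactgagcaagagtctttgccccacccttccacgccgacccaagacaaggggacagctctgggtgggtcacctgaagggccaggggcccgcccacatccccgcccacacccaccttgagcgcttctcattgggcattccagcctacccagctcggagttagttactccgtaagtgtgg

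Primed epiblast genes, which mark the next stage of pluripotency, went both ways, with 9 higher and 5 lower of 18. Fgf5, the classical primed marker, read -1.54, 5.50 and 3.79 and was 40.3-fold higher. Foxd3, a forkhead factor of epiblast and neural crest, read 0.43, -0.80 and -4.96 and lost most after day 5. Otx2, another epiblast factor, was highest at day 5 and read 3.44, 5.55 and 3.28 (named after its values were seen).

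Germ line and maternal-effect genes were lower in 35 of 45 cases and higher in 0, with a median of -3.52. Morc1, which silences transposons in male germ cells, read 4.65, -1.87 and -7.08 and was at least 3305-fold lower. Khdc3 and Ooep, parts of the maternal complex of the egg, read 3.63, -4.42 and -6.38 and 4.20, -1.54 and -5.16. Mael, of the piRNA pathway, read 1.86, -3.49 and -6.62 and was 357-fold lower, and Rpl39l, a testis form of a ribosomal protein, was at least 828-fold lower, with another probe at -4.66. Dazl, an RNA-binding protein of germ cells, read -2.53, -7.76 and -5.16 and was not well above background at day 5. The Tcstv3 transcript of the two-cell-stage list was 22.2-fold higher, with its peak at day 5 (-5.62, 1.72 and -1.15), while Usp17la was at least 3.29-fold lower.

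Chromatin genes changed subunit by subunit. Of 33 genes for DNA methylation and Polycomb, 7 were higher and 12 lower. Dnmt3l, the cofactor of new methylation, read 5.11, -0.76 and -3.25, Dnmt3b, the enzyme it works with, 3.14, 5.15 and 4.25, and the maintenance enzyme Dnmt1 2.02, 1.33 and 1.05. Dnmt3a was 2.32-fold lower by the probe used, with others at -0.43 and 0.83. Tet1 and Tet2, which oxidise methylcytosine, were 7.50-fold lower and 9.64-fold lower, and Tet3 was 5.85-fold higher by the probe used, with another at -0.18. In the Polycomb complex, Cbx7, the ES cell chromobox subunit, was 7.86-fold lower, while Cbx8 was 8.37-fold higher. Phc1, singled out after its value was seen, was 6.45-fold lower and Phc2 4.36-fold higher. Members thus moved in opposite directions within the chromobox and within the Polyhomeotic family.

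Imprinted genes, expressed from 1 parental copy, were higher in 18 of 30 cases and lower in 3, with a median of 1.82. Peg3, a zinc finger protein, read -0.58, 2.44 and 3.58 and H19, the long RNA next to Igf2, -3.28, -3.29 and -0.99. H19 and Igf2 both had their larger step after day 5. Sgce (10.9-fold higher) and Usp29 (7.84-fold higher) were also higher, and Mest read 3.03, 5.94 and 5.71. Cdkn1c, an inhibitor of the cell cycle, was 3.90-fold higher. Slc22a18, Dio3 and Snrpn were the lower members, at 2.62-fold lower (another probe -0.93), 2.31-fold lower and 2.24-fold lower.

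**Figure D5:**
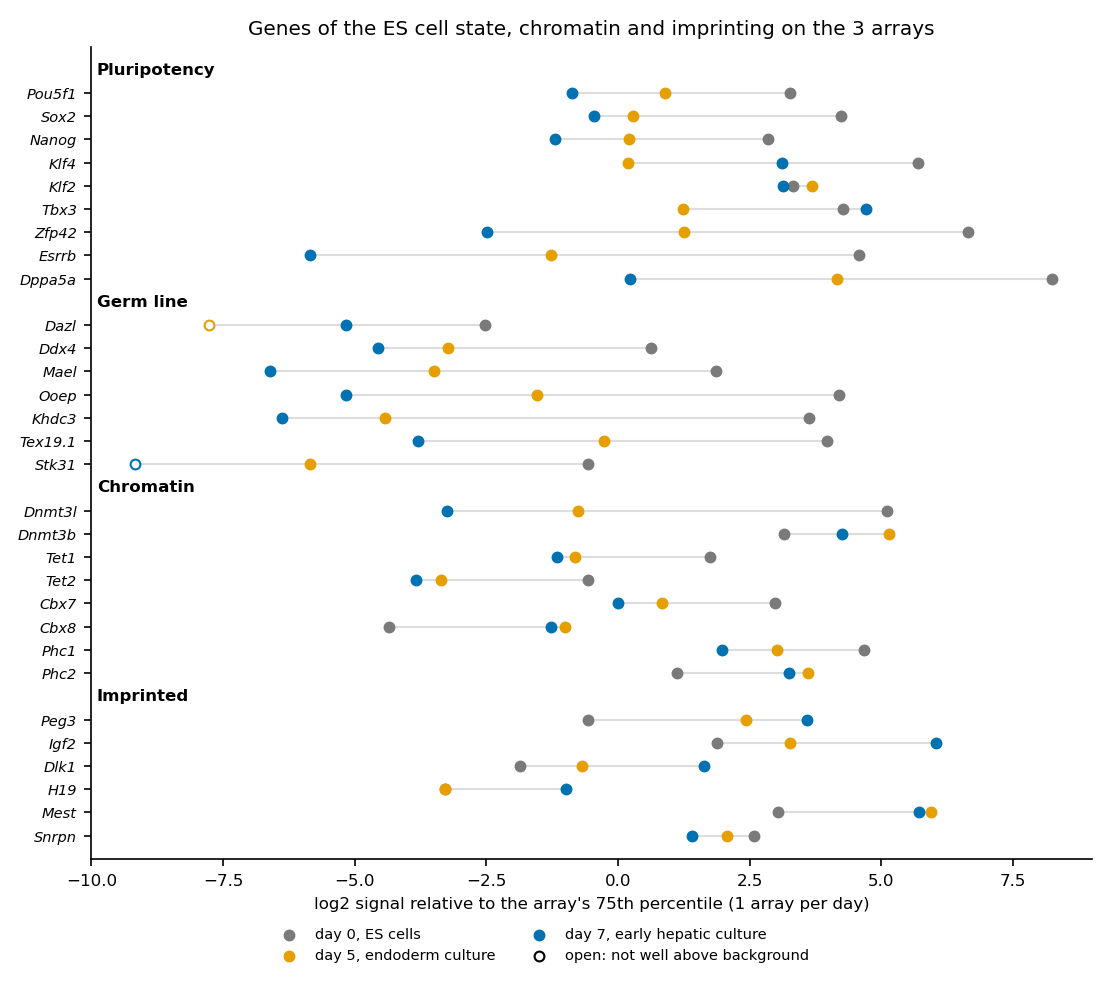
Log2 signal of pluripotency, germ line, chromatin and imprinted genes relative to the 75th percentile of each array (horizontal axis) at day 0 (grey), day 5 (orange) and day 7 (blue), 1 array per day; open points were not well above background. Tbx3 at day 7 lies within 2-fold of day 0, as does Klf2 by the probe shown (its other probe differs by -8.05), whereas the difference of Esrrb is -10.42 and that of Peg3 4.16.

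Cell cycle genes were lower in 23 of 44 cases and higher in 6, with a median of -1.01. With quantile normalisation 17 were lower and the median was -0.68, and in the authors' deposited table these values were 16 and -0.69. Ccne1, the G1/S cyclin, read 5.69, 3.35 and 3.19 and was 5.68-fold lower, with Mcm10 (5.20-fold lower), E2f2 (3.57-fold lower) and Ccnb1 (3.46-fold lower) next. Mki67, a marker of cycling cells, stayed within 2-fold at 4.78, 4.21 and 4.48. Among cyclins, Ccnd2 read -0.21, 2.55 and 3.21 and was 10.7-fold higher, and Ccne2 was 2.11-fold higher, whereas Ccnd1 was 2.22-fold lower. The growth regulator Myc read 1.49, 1.85 and 0.20 and was 2.46-fold lower, and Mycn, lowest at day 5, was within 2-fold of day 0 at day 7 (5.41, 4.0 and 4.97). The inhibitors Cdkn1c, Cdkn2b (2.75-fold higher) and Cdkn1a (2.64-fold higher) were higher. Stress genes gave 5 higher and 10 lower of 30 (16.7% and 33.3%, against 16.4% and 19.5% of all genes compared). They ran from Atf3 (6.97-fold higher) to Nupr1 (above), with Gdf15 (21.4-fold lower) the next lowest. Mdm2, the p53 inhibitor, read 2.39, 1.47 and 1.80 and Ddit3, a stress factor, 0.05, -1.67 and -0.83.

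Glycolysis genes were lower in 11 of 26 cases, but in 7 with quantile normalisation and 6 with the authors' deposited table. Pfkp, a phosphofructokinase, was 28.0-fold lower with other probes at -4.08 and -0.21, Pdk1, which shuts pyruvate out of the mitochondrion, 12-fold lower, and Slc16a3, a lactate exporter, 3.61-fold lower. Hk2, the first enzyme of the pathway, was 2.32-fold lower, and of the lactate dehydrogenase chains Ldhb was 3.14-fold lower and Ldha level at 7.28, 7.33 and 6.97. The glucose carrier Slc2a3 was 2.98-fold higher, and Slc2a1 was level at 6.2, 6.48 and 6.24. Cholesterol synthesis genes had 10 of 26 higher and 0 lower, with a median of 0.87. Ebp and Sc5d, late sterol enzymes, were 4.18-fold higher and 3.81-fold higher.

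The 53 cytosolic ribosomal protein genes were all within 2-fold between day 0 and day 7, with a median of -0.49 that was 0.07 with normexp, so no direction is given for them. Of 16 reference genes used for normalisation in the field, 2 were higher and 4 lower. B2m, a subunit of MHC class I, was 5.75-fold higher, and Hprt was 2.57-fold lower. Tbp was 2.15-fold lower, with another probe at -0.99, and Gapdh was within 2-fold at 7.08, 6.62 and 6.35. The probe named Actb is placed on chromosome X by its annotation, away from the actin gene, and is not used here.

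Among the largest differences were genes of varied function. Prss12, a secreted serine protease of neurons, led the rises with -4.92, 4.75 and 5.89. Cemip, a hyaluronan-binding protein, was 241-fold higher with other probes at 0.35 and 7.71, Irs4, an insulin receptor substrate, 137-fold higher with another probe at 0.04, and Asb4, an E3 ligase adaptor, 349.6-fold higher (another probe 5.45). The winged-helix factor Rfx6, of endoderm and islets, read -8.07, 0.34 and 1.97 and was at least 432-fold higher. Slc28a2, a nucleoside carrier, was at least 218-fold higher and Nrp1, a semaphorin and VEGF co-receptor, at least 201-fold higher (other probes 4.17 and 6.01). Among the falls, Tekt1, a protein of cilia and flagella, read 3.12, -1.89 and -6.09 and was 591-fold lower. Liph, a phospholipase, was 445-fold lower, Triml1, an early embryonic ligase, 445-fold lower (another probe -4.95), Gdf3, a TGF-beta ligand of pluripotent cells, 299.7-fold lower and Dppa5a 259-fold lower. Prdm6, a smooth muscle regulator, read -2.76, 2.94 and 4.57, and Gtsf1, a piRNA factor, 0.85, -6.02 and -7.68. Psma8, a testis proteasome subunit, was at least 457-fold lower, Laptm5, a lysosomal membrane protein of blood cells, at least 181-fold lower and Mageb16 411-fold lower. Rec114, which prepares meiotic double-strand breaks, was 277-fold lower, and Syce1, of the synaptonemal complex, at least 592-fold lower.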

How the data were processed

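RNA of 3 mouse ES cell-derived cultures, 1 array each, had been hybridised to 1-colour Agilent arrays that lay on 1 slide, per the file headers. Spot intensity, background-subtracted by Agilent Feature Extraction 10.5.1.1, was taken as deposited. The authors' deposited value table holds log2 values whose scaling no source states (each column has a median of 7.1678). It served as an alternative. From the intensity of 43379 gene spots, log2 was taken, the 75th percentile of each array (intensity 1563.8 at day 0, 2050.7 at day 5 and 2053.2 at day 7) was subtracted and spots were averaged per probe. Each gene is represented by 1 probe, chosen by detection on the 2 arrays and then by brightness. Well above background was the mark set by the extraction software in more than 50% of spots. Spots that the software marked as non-uniform or as outliers were left out before averaging. A bound is the bright value over the higher of the lowest signal well above background and the dim probe's own value.

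With 1 array per group there is no test, and the number of arrays limits the precision. Simulated arrays were used to check the steps. Named were the 20 largest and 20 smallest differences, 10 bounds each way and, of each of 45 gene lists, fixed key members and up to 6 higher and 4 lower genes in order of size, from which a selection is described; some of these genes are not reported here. The members and lists were chosen with earlier results of these data known. Promoter windows and gene names came from RefSeq tables of GRCm38.p6, and probe positions in the files are mm9. Python 3.11.15, numpy 2.4.6, pandas 2.3.3, R 4.3.3 and limma 3.58.1 were used, with 9 alternative settings.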

Additional observations from a re-analysis of the deposited data

How the results depend on the processing

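Under quantile normalisation, subtraction of the array median, keeping of marked spots and the authors' deposited table, 0 of the 293 genes named as changed took the other sign and 1, Hk2, came under 2-fold (-0.95 with quantile normalisation and -0.92 with the deposited table). The median difference moved from -0.21 to -0.084 with the deposited table. Normexp background correction (offset 50) moved it to -0.56 and gave 1567 genes higher and 8314 lower, so that 15.86% of called genes were higher against 45.61% in the main setting. In that fit the 25th percentile of intensity was 1448 at day 0, 89.19 at day 5 and 423.2 at day 7, and it was 77.16, 89.19 and 78.48 when 5 spots at day 0 and 1 at day 7 that lay far below their background were left out, an alternative chosen after seeing the data. Without those spots 45.33% of called genes were higher and 0 of the 293 genes took the other sign, although 21 came under 2-fold and 135 became smaller by over 1.5 times. With all spots, 64 came under 2-fold and these took the other sign: Ambp -0.57, Apoa4 -0.68, Arg1 -1.28, Axin2 -0.22, Cbx8 -0.066, Cfi -1.16, Cybrd1 -0.033, Dll1 -0.28, F5 -0.94, Gata4 -0.20, Hand2 -0.94, Hbb-bh1 -1.49, Heph -0.33, Hhip -1.44, Hoxa11 -1.19, Nkx2-5 -0.74, Plg -0.81, Prox1 -0.57, Tbx20 -0.34, Tcstv3 -0.23, Tdo2 -0.34, Wnt5a -0.96 and Wt1 -1.29. The median over all probes of a gene turned Cdh11 to 7.72 and brought Cdh2 (0.83), Prox1 (0.24), Dnmt3a (-0.43), Hhip (0.74), Hbb-bh1 (0.84) and Hoxc10 (-0.81) under 2-fold. It gave 1.72 for Hnf4a, 1.91 for Masp1 and -4.12 for Klf2. Requiring both arrays above background left 245 of the 293 genes and lowered the germ line count from 35 to 20. No paired analysis was possible because each group has 1 array and the labels give no replicate numbers, and for the same reason no replicate could be left out. Signals close to background limit the Hox, coagulation and enzyme values.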
